A study of Mus musculus with 12 samples.

Results

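The pan-neuronal genes described here are 34 genes that most neurons use, together with a few that mark autonomic neurons, chosen by symbol from a table of 56495 genes from RNA sequencing of fetal mouse urogenital sinus. They were taken as neural markers of the pelvic ganglia, and they cover neuronal RNA-binding proteins, the axonal cytoskeleton, growth cones, secretory granules, synaptic vesicles, nicotinic receptors and membrane sorting. All 34 were found in the table, and 33 reached the level required for testing, which was at least 1 FPKM in at least 3 libraries. The long non-coding RNA Snhg11 stayed below it in every library.

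The pelvic ganglia lie in the connective tissue beside the bladder neck, the prostate or vagina and the rectum, and supply these organs. They hold noradrenergic sympathetic and cholinergic parasympathetic neurons side by side, both derived from the neural crest. Preganglionic fibres from the spinal cord act on these neurons through nicotinic acetylcholine receptors, and in adult rats the ganglia of males hold more neurons than those of females.

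The 12 libraries formed 4 groups of 3: mutant females, mutant males, wild type females and wild type males, all at stage E18.5. Mutants are labelled Inv(Itga6-nsi)d11lac, a name that joins an inversion bounded by Itga6, a gene of chromosome 2, to an allele called d11lac. Mutant libraries carried both and wild type libraries carried neither, so the inversion and the d11lac allele cannot be told apart. The dissected tissue was the sinus without the bladder, and it kept the proximal urethra in both sexes and the vagina of females. It is a mixed tissue, and the labels do not mention ganglia. Whether replicates are separate embryos is not stated, and p-values therefore describe the spread of these libraries, which may be technical. In tissue RNA, fewer neurons and less of a transcript per neuron cannot be told apart.

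Values are FPKM, an abundance corrected for gene length and library size, divided by a scaling factor for each library and called scaled FPKM. Relative sequencing depth was 0.582 to 0.717 in the 6 mutant libraries and 0.812 to 1 in the 6 wild type libraries, without overlap, and its part in the results was not tested. Total read counts were not recoverable, so no counting interval is given. In mutant males 1 and 3 and wild type male 1 the small nuclear RNA Rn7sk held 12.2% to 14.9% of the FPKM sum, against 0 in every other library. Xist and Y-linked genes matched the sex labels of all 12 libraries.

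Promoter sequences of 4 of the genes are shown because these genes stand at the ends of the mutant comparison (Scg5 lowest, Syn1 and Phox2a highest) or pair with one of them in a family (Scg2, another granin). Phox2a was added after its values had been seen. Each is a RefSeq window of GRCm38.p6 of 300 bases, most of them upstream of a transcription start, printed 5′ to 3′ on the gene's own strand. Capitals mark matches, on either strand, to the left arm of the RE1 silencer element (TTCAGCACC), the cyclic AMP response element (TGACGTCA) or the GC box (GGGCGG).
Scg5, chr2:113829042-113829341, minus strand: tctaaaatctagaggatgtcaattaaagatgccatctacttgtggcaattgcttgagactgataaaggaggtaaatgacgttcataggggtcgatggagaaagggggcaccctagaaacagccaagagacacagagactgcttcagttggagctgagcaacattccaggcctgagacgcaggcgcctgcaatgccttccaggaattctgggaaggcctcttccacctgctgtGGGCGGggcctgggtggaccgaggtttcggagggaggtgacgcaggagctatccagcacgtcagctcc
Syn1, chrX:20920869-20921168, minus strand: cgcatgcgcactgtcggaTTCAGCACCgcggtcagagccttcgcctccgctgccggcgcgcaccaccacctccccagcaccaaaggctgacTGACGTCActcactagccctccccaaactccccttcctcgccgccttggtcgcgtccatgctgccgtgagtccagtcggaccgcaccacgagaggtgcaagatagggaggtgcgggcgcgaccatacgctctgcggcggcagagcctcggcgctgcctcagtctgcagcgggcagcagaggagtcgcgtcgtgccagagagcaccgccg
Phox2a, chr7:101818063-101818362, plus strand: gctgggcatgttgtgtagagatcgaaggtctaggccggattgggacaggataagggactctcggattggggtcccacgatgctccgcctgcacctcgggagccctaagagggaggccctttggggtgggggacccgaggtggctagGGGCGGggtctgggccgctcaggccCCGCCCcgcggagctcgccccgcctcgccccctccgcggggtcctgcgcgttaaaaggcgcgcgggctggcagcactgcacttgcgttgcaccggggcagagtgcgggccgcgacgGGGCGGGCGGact
Scg2, chr1:79439977-79440276, minus strand: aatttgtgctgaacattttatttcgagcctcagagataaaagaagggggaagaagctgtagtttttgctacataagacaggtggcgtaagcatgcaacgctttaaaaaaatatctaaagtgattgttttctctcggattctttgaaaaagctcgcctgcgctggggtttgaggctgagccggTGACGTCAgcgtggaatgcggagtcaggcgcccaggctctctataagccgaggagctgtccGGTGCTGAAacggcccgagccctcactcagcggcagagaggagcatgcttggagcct

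Such windows were found for 22 of the 34 genes, 28 windows in all. RE1 is the element through which the repressor REST silences neuronal genes in other cells. Its left arm lay in 3 of the 28 windows, those of Nsg2, Scg2 and Syn1, and in 0.371% of all 32851 windows. The cyclic AMP response element lay in 3 of the 28, those of Chgb, Scg2 and Syn1, and in 1.79% of all windows. The GC box lay in 14 of the 28 and in 35.7% of all windows, and the E-box CAGCTG in 11 of the 28 and in 16.3% of all. None of these motifs contains another, and a match describes the letters only. The letter pair CG occurred a median of 17 times per window in the 28 windows and 7 times in all windows. Its part in the motif shares was not tested.

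Library by library, neural content was lowest in mutant female 3, next lowest in mutant female 1 and nearer to wild type in the other 4 mutant libraries. To place each library, every gene was divided by its geometric mean over the 6 wild type libraries, and the median over the 34 genes was taken. The median ratio was 0.548, 0.918 and 0.119 in mutant females 1, 2 and 3, against 0.795, 0.769 and 0.962 in wild type females 1, 2 and 3. It was 1.04, 0.862 and 0.892 in mutant males 1, 2 and 3, against 1.26, 1.14 and 1.18 in wild type males 1, 2 and 3. In males the mutant and wild type medians did not overlap, whereas in females mutant female 2 lay between the wild type libraries and the other 2 lay below them.

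**Figure D1:**
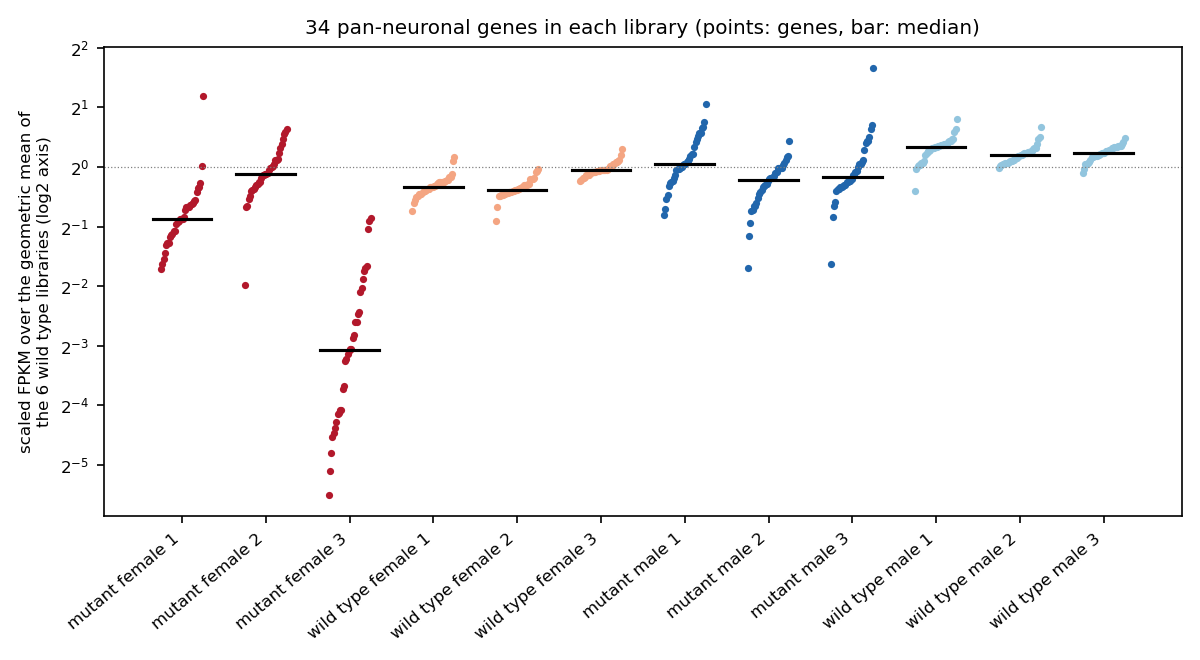
The 34 pan-neuronal genes in each of the 12 libraries, as scaled FPKM over the geometric mean of the 6 wild type libraries on a log2 axis; each point is a gene and each bar the median of its library. The median of mutant female 3 is 0.119, that of mutant female 1 is 0.548, and the other 10 lie between 0.769 and 1.26.

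Summed levels were lowest in the same 2 libraries, mutant females 3 and 1. The 34 genes together came to 555, 916 and 179.7 scaled FPKM in mutant females 1, 2 and 3, against 778, 740.3 and 919 in wild type females 1, 2 and 3. They came to 969, 745 and 853 scaled FPKM in mutant males, against 1178, 1072 and 1137 in wild type males.

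Mutant female 3 was the lowest of the 12 libraries for 34 of the 34 genes, and for 33 of them when FPKM were taken as deposited. The share of all tested genes for which it was the lowest was not determined. Its levels were a median of 15.4% of the mean of mutant females 1 and 2, from 4.21% for the heavy neurofilament gene Nefh to 79% for the RNA-binding protein gene Celf4. Levels under 25% were found for 28 of the 34 genes (82.4%), against 266 of the 13904 genes tested (1.91%). The 28 include Snhg11, at 16.2%, which is not among the 13904. The 34 genes were chosen with earlier results of these data known, so this contrast is a description only. Just under it stood Elavl4 at 24.8% and just over it Uchl1 at 26.2%. The highest percentages in this library were those of Celf4 at 79%, Dpysl3 at 73.6%, Nsg1 at 66.1% and Syt1 at 43.1%.

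Most lists of other neural genes had low medians in mutant female 3, to different degrees, and markers of muscle and mesenchyme were near or above 100%. Cholinergic and nitrergic genes had a median of 10.1% of the mean of mutant females 1 and 2, neuronal secretory granule genes 23.5% and noradrenergic genes 26.5%. Schwann cell and glial genes stood at 63.6% and transcription factor and receptor genes of autonomic identity at 65%. Further neural lists stood at 32.8% for RNA-binding, 42% for nicotinic subunits, 46.1% for synaptic vesicle, 50.2% for cytoskeletal, 72.4% for axonal adhesion and 76.8% for kinesin genes. Tested neuroendocrine epithelial genes (4) stood at 30.4% and sensory neuron genes (2) at 36.8%. The 1 tested adrenal medulla gene, Slc18a1, stood at 25% and the 1 tested motor neuron gene, Isl2, at 243%. Smooth muscle, mesenchyme, endothelium and skeletal muscle markers stood at 115%, 115%, 105% and 100%, epithelial markers at 69.7%, haemoglobin and other red cell genes at 33% and all tested genes at 98.5%.

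**Figure D2:**
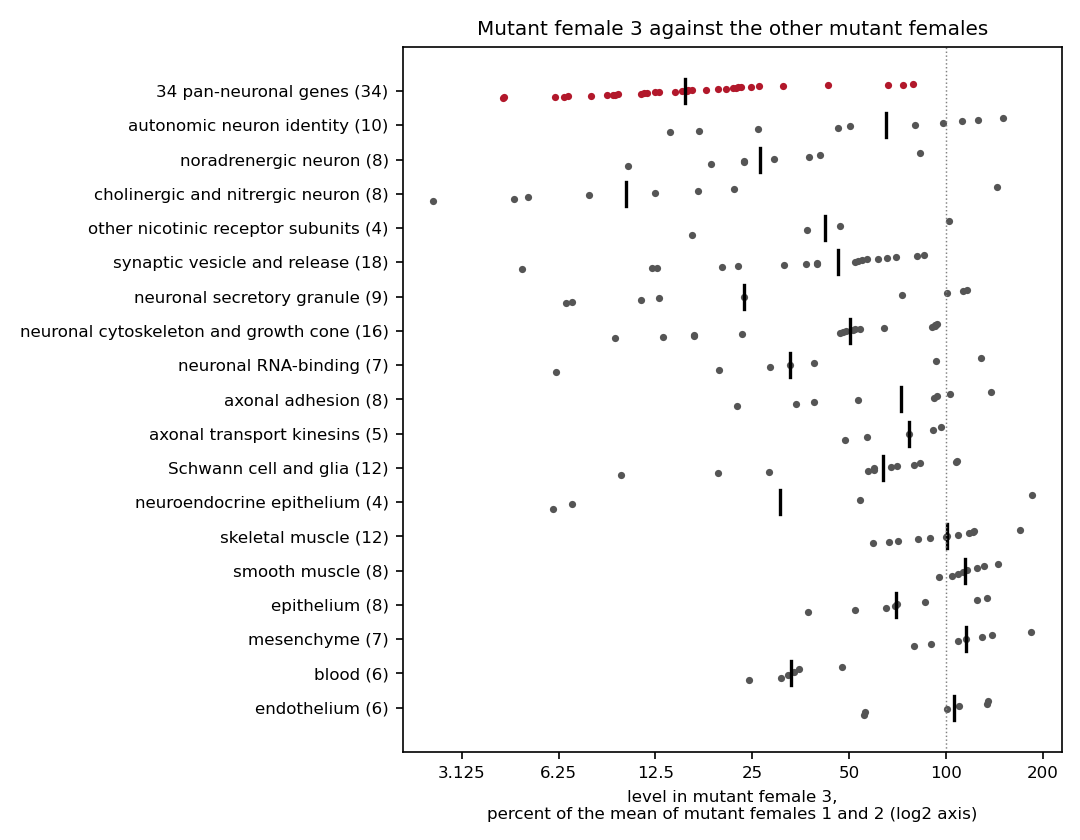
Level of each gene in mutant female 3 as a percentage of the mean of mutant females 1 and 2, on a log2 axis, for the 34 pan-neuronal genes and for the tested genes of companion lists with at least 4 of them; points are genes, bars are medians and numbers in brackets count genes. The pan-neuronal median is 15.4% and those of smooth muscle and mesenchyme are 115%.

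Single genes differed in how low they were in that library. The vasoactive peptide gene Vip had 11.01, 13.3 and 0.310 scaled FPKM in mutant females, against 12.3, 10.6 and 11.3 in wild type females. It was lowest in mutant female 3, where the glial factor gene Sox10 had 3.03 scaled FPKM beside 3.85 and 6.74 in mutant females 1 and 2. Hand2, a sympathetic factor that pelvic mesenchyme also makes, had 9.95, 15.4 and 10.1 scaled FPKM in mutant females, so its value in mutant female 3 lay between those of the other 2 libraries.

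The other libraries ranked as follows within their groups. How they ranked over all tested genes was not determined, so these counts do not set the 34 genes apart. Mutant female 2 was the highest mutant female for 32 of the 34 genes, mutant male 1 the highest mutant male for 27, wild type female 3 the highest wild type female for 31 and wild type male 1 the highest wild type male for 20. The lowest library of its group was most often mutant male 2 (30 genes), wild type female 2 (22 genes) and wild type male 2 (16 genes). With FPKM as deposited, mutant male 3 was the lowest mutant male for 32 genes and wild type male 3 the lowest wild type male for 23, so the order within the male groups depended on the scaling. Among females the lowest libraries were the same, mutant female 3 for 33 genes and wild type female 2 for 26.

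The first comparison asked what the mutant genotype did to these genes, within each sex and over both. A gene is said to be called where the Benjamini-Hochberg adjusted p of limma over the 13904 tested genes was under 0.05. In females 1 of the 33 tested genes was lower in mutants and 0 were higher, while 15.9% of all tested genes were called lower and 12.1% higher. The median log2 fold change of the 33 genes was -0.86, with a range from -2.41 to -0.00, against 0.00 over all tested genes, and 14 of the 33 were lower at an unadjusted p under 0.05. The share of all tested genes at an unadjusted p under 0.05 was not determined in any comparison. Counts at that threshold are therefore no result about the group. The gene called was Scg5, a chaperone of prohormone convertase 2 in secretory granules.

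Leaving out mutant female 3 brought the female median to -0.25, with 2 genes called lower, Scg5 and Syt4, against 13.9% of all tested genes. Leaving out mutant female 2 gave 28 genes called lower, against 16.7% of all tested genes, and leaving out mutant female 1 gave 2, against 16.4%. Values in 6 of the 33 genes did not overlap between the 3 mutant and 3 wild type females and were lower in mutants (Celf4, Scg3, Scg5, Snap25, Syt4 and Chrna3), against 22.2% of all tested genes.

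In males 0 of the 33 genes were called by limma in either direction, against 20.3% of all tested genes (11.6% lower and 8.64% higher). At an unadjusted p under 0.05, 3 were lower in mutants. The median log2 fold change of the 33 genes was -0.37, with 26 values below and 7 above 0. The 3 mutant and 3 wild type males did not overlap for 20 of the 33 genes that were lower in mutants, against 22.4% of all tested genes, and for 1 gene, Phox2a, that was higher. The share of all tested genes that did not overlap and were higher was not determined. The fit shares 1 estimate of the spread among the 4 groups, so female libraries bear on the male test. Without mutant female 3 limma called 7 genes lower in mutant males (Elavl4, Nsg1, Scg5, Snap25, Stmn3, Syt4 and Tubb3), against 13.5% of all genes. It called 3 without mutant female 2, against 12% of all genes, and 1 without mutant female 1, against 15.1%. With only the 6 male libraries in the fit, 15 were lower, against 12.8% of all genes, and 1, Phox2a, was higher, against 10.9%.

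Over both sexes 9 of the 33 genes fell in mutants and 0 rose, against 21.6% of all tested genes called lower and 18.9% called higher. The count of 9 is near the share called lower and is no result about the group. The 9 were Elavl4, Celf4, Dpysl3, Scg5, Snap25, Syt1, Syt4, Chrna3 and Nsg1, and the median over the 33 genes was -0.58. Of the 34 genes, Celf4, Dpysl3, Nsg1 and Syt1 were the least low in mutant female 3. They kept 79%, 73.6%, 66.1% and 43.1% of the mean of mutant females 1 and 2. How much of their RNA came from neurons was not tested. Without mutant female 3 the median was -0.30 and 12 genes were called lower, against 21% of all genes. These 12 were Scg5, Syt4, Snap25, Elavl4, Chrna3, Nefl, Scg2, Stmn3, Scg3, Syt1, Nsg2 and Nsg1, and Celf4 and Dpysl3 were not among them. The count was 22 without mutant female 2, against 22.5% of all genes. It was 3 without mutant male 2 (19.4% of all genes) or wild type female 3 (18.8%), and 4 without wild type female 1 (2565 of 13849 genes) or wild type male 1 (18.6%). The alternatives tallied for single genes in the following paragraphs change 1 choice at a time. A combined one, with correction for GC content and transcript length and without mutant female 3, called 10 genes lower, against 9.2% of all genes. These were Chrna3, Dpysl3, Nefh, Nefl, Nsg1, Prph, Scg5, Stmn3, Syt4 and Tubb3.

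**Figure D3:**
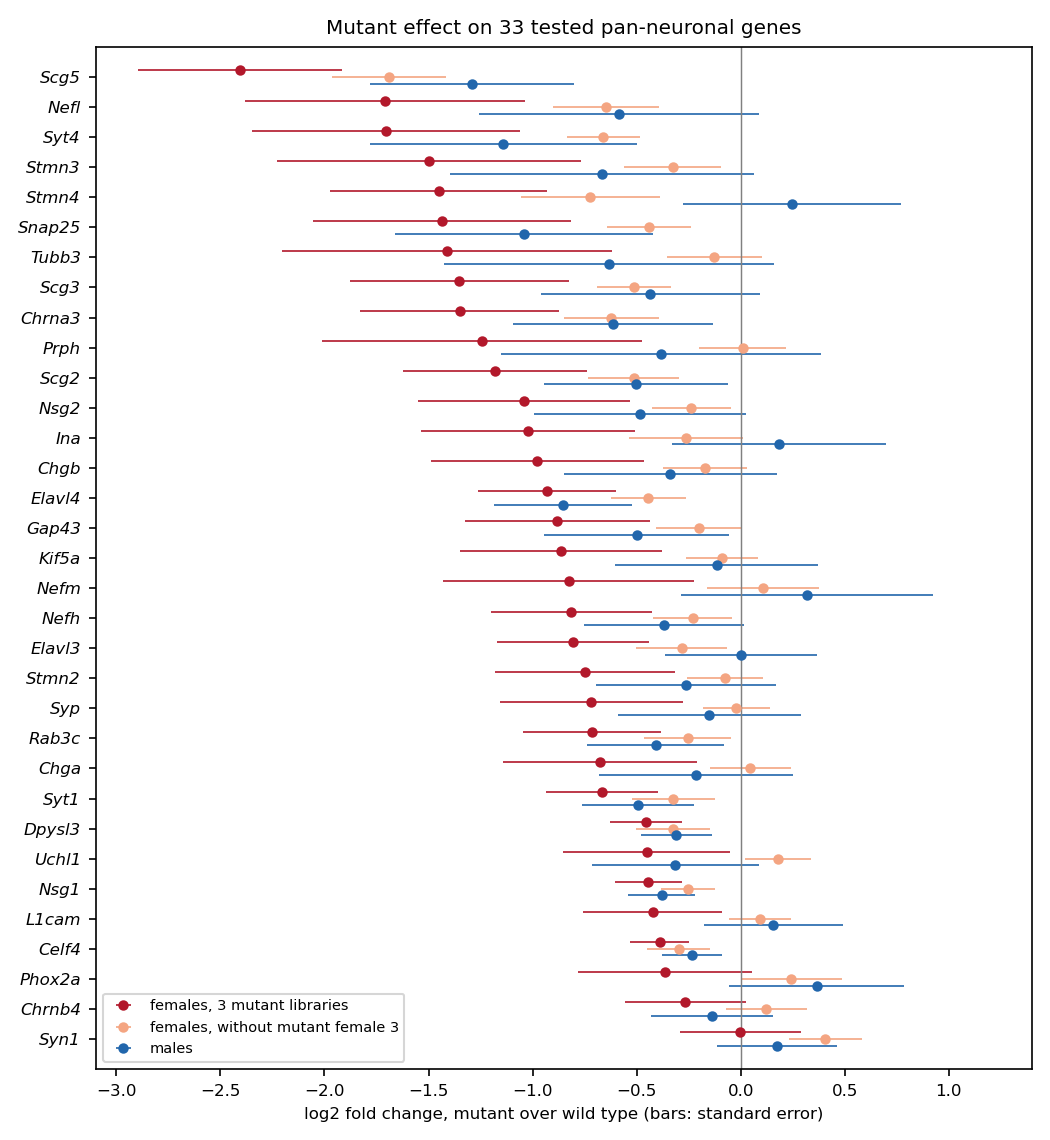
Log2 fold change of mutant over wild type with its standard error for the 33 tested genes, in females with all 3 mutant libraries, in females without mutant female 3, and in males. Scg5 is lowest in all 3, at -2.41, -1.69 and -1.29, and the female values of most genes move toward 0 when mutant female 3 is left out.

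The mutant effect was also compared between the sexes. The male minus female difference was called for 0 of the 33 genes by limma, against 0% of all tested genes, with a smallest adjusted p of 0.553 and 1 gene, Stmn4, at an unadjusted p under 0.05. All 33 differences were above 0 with a median of 0.57, and the median was -0.14 without mutant female 3.

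Among the RNA-binding proteins, which stabilise and splice neuronal transcripts, Elavl4 fell over both sexes. Elavl4 (HuD) had 2.26, 3.79 and 0.751 scaled FPKM in mutant females, against 3.73, 4.11 and 4.75 in wild type females. In males it had 3.97, 3.30 and 4.15 in mutants, against 7.66, 7.63 and 6.49 in wild types. The males did not overlap, and in females mutant female 2 lay within the wild type range. Over both sexes its log2 fold change was -0.89 (SE 0.23, adjusted p = 0.0109), called in 20 of 21 alternative settings and not after correction for GC content and transcript length, with or without mutant female 3.

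Celf4, a regulator of splicing and synaptic messages, fell by a small amount. It had 2.41, 3.14 and 2.19 scaled FPKM in mutant females, against 3.15, 3.48 and 3.91 in wild type females, and 3.91, 3.24 and 4.22 in mutant males, against 4.27, 5.18 and 4.18 in wild type males. Its log2 fold change over both sexes was -0.31 (SE 0.10, adjusted p = 0.0283), and the call was lost in 7 of the 20 alternatives that change 1 choice and tested it, and in the combined one. Elavl3 (HuC), a relative of Elavl4, averaged 1.35 ± 0.958 scaled FPKM in mutant females and 2.40 ± 0.530 in wild type females (SD, n = 3 each). In males it averaged 3.46 ± 0.929 in mutants and 3.37 ± 0.192 in wild types (SD, n = 3 each), and it was not called in any mutant comparison.

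**Figure D4:**
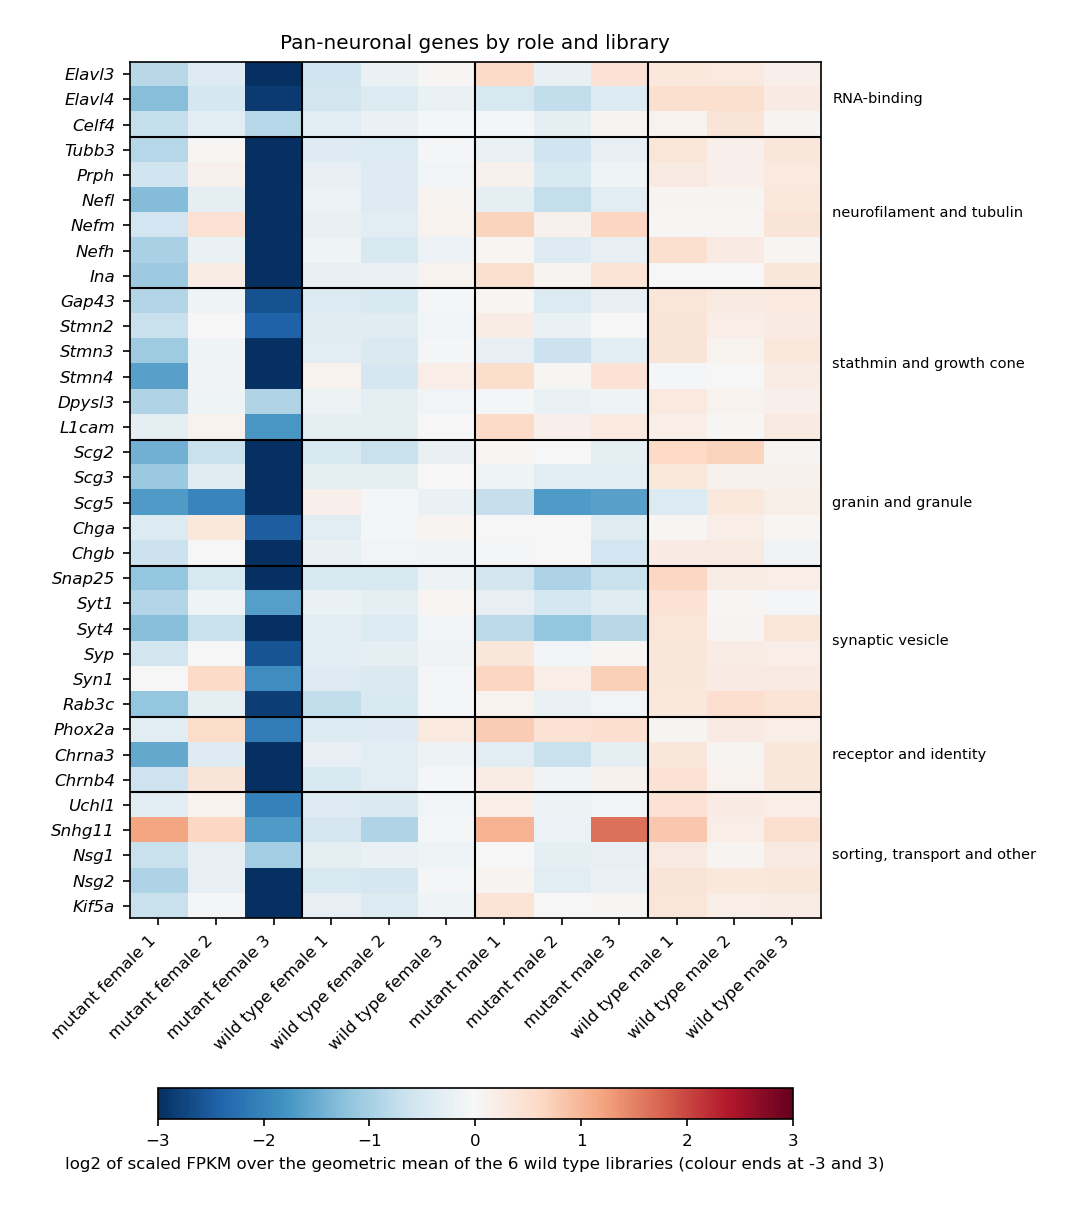
Log2 of scaled FPKM over the geometric mean of the 6 wild type libraries for the 34 genes, grouped by role, in the 12 libraries; colours end at -3 and 3. Mutant female 3 is the lowest column, and Scg5 is low in all 6 mutant libraries.

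None of the 6 genes of the axonal cytoskeleton was called, and their levels differed widely. Tubb3, the neuronal beta-tubulin, had 66.3, 124 and 5.82 scaled FPKM in mutant females, against 91.9, 91.0 and 117 in wild type females, and 106, 79.8 and 101 in mutant males, against 155, 134 and 154 in wild type males. Prph, which encodes the peripheral neuron filament peripherin, had 69.3, 116 and 6.18 in mutant females, against 88.6, 80.6 and 99.0 in wild type females. In both genes mutant female 2 was above, and mutant female 3 far below, all 3 wild type females. Their log2 fold changes over both sexes, -1.02 for Tubb3 and -0.81 for Prph, were not called (limma adjusted p = 0.168 and 0.254).

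The light and medium neurofilament subunits had male fold changes of opposite sign. Nefl, the light subunit, had 64.1, 46.6 and 61.4 scaled FPKM in mutant males, against 80.8, 81.2 and 95.5 in wild type males, all mutants below all wild types. Nefm, the medium subunit, had 37.5, 25.5 and 36.6 in mutant males, against 23.9, 24.4 and 30.5 in wild type males, 2 of the 3 mutants above all wild types. The male log2 fold changes were -0.59 for Nefl and 0.32 for Nefm, neither of them called (adjusted p = 0.577 and 0.747). In the table the span of Nefm (chromosome 14, 68320039 to 68362295 in mm39) contains that of Nefl (68321312 to 68326544), and the strand setting of the counting was not given, so reads of the 2 genes may have been shared and these values are uncertain.

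Nefh and Ina, which encode the heavy subunit and alpha-internexin, stood at lower levels. Nefh averaged 1.78 ± 0.272 scaled FPKM in mutant males and 2.45 ± 0.350 in wild type males, and Ina 6.29 ± 0.900 in mutant males and 5.47 ± 0.756 in wild type males (SD, n = 3 each). Neither was called, with log2 fold changes over both sexes of -0.59 and -0.42 (limma adjusted p = 0.106 and 0.379).

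Of the growth cone and stathmin genes, Dpysl3 fell over both sexes and the others were not called. Dpysl3, a collapsin response mediator that fetal mesenchyme also makes, had 61.1, 105 and 61.0 scaled FPKM in mutant females, against 102, 92.9 and 107 in wild type females. In males it had 109.5, 99.8 and 104 in mutants, against 139, 122 and 128 in wild types. The male groups did not overlap and the female groups overlapped through mutant female 2. Over both sexes Dpysl3 stood at a log2 fold change of -0.38 (SE 0.12, adjusted p = 0.0268), and the call was lost in 7 of 21 alternatives.

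Stmn4, a stathmin that binds tubulin dimers, showed the largest gap between the sexes in the size of its effect. It had 2.86, 8.198 and 0.692 scaled FPKM in mutant females, against 9.44, 6.27 and 10.1 in wild type females, and 12.6, 8.99 and 11.9 in mutant males, against 8.64, 8.94 and 10.2 in wild type males. Mutant females 1 and 3 were low, and mutant males 1 and 3 were above all wild type males. The log2 fold change was -1.45 in females and 0.25 in males, and their difference of 1.70 (SE 0.74) was not called (limma adjusted p = 0.553).

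Gap43, a growth cone protein, averaged 53.1 ± 9.10 scaled FPKM in mutant males and 74.5 ± 2.83 in wild type males (SD, n = 3 each). Stmn2, another stathmin, averaged 47.8 ± 6.801 in mutant males and 57.1 ± 4.21 in wild type males (SD, n = 3 each). Stmn3 averaged 27.4 ± 3.96 and 43.5 ± 4.13 in the same order (SD, n = 3 each). Gap43 and Stmn3 did not overlap between the male groups and Stmn2 did. L1cam, an adhesion molecule of axons, had 17.7, 13.3 and 14.6 in mutant males, against 13.8, 12.3 and 14.5 in wild type males, with overlap. Log2 fold changes over both sexes were -0.69, -0.51, -1.08 and -0.13 for Gap43, Stmn2, Stmn3 and L1cam, and none of the 4 was called (limma adjusted p from 0.101 to 0.678).

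The granule protein genes held the gene with the largest difference. Scg5 (ENSMUSG00000023236, chromosome 2, 113606707 to 113659466 in mm39) had 4.36, 3.62 and 0.511 scaled FPKM in mutant females, against 15.96, 13.6 and 12.48 in wild type females. It had 8.76, 4.41 and 4.63 in mutant males, against 10.7, 17.8 and 16.1 in wild type males. All 6 mutant libraries lay below all 6 wild type libraries, with mutant male 1 closest to wild type male 1. The limma log2 fold change was -2.41 (SE 0.49, adjusted p = 0.00501) in females, -1.29 (SE 0.49, adjusted p = 0.0855) in males and -1.85 (SE 0.35, adjusted p = 0.00171) over both sexes. The female call held in all 22 alternatives tried, with log2 values from -2.82 to -1.69, and the call over both sexes in all 21, from -2.06 to -1.49. Its promoter window, printed above, had 1 GC box and neither the RE1 left arm nor the cyclic AMP response element. Scg5 shares chromosome 2 with Itga6, as do Snap25, Stmn3, Chgb and Snhg11, and whether the inversion holds any of them was not tested.

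The other granins were not called. Scg3, which sorts granins into granules, had 4.22, 7.10 and 0.542 scaled FPKM in mutant females, against 7.50, 7.43 and 9.28 in wild type females, and 8.32, 7.28 and 7.23 in mutant males, against 11.4, 10.01 and 9.97 in wild type males. Its groups did not overlap in either sex, and its log2 fold change over both sexes, -0.89 (SE 0.37, adjusted p = 0.0762), was not called. Scg2 (secretogranin II) had 2.13, 3.66 and 0.328 in mutant females, against 4.22, 3.62 and 4.93 in wild type females, and stood at -0.84 (SE 0.31, adjusted p = 0.0507) over both sexes.

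Chromogranins A and B, major proteins of granule cores, were not called. Chga averaged 8.04 ± 5.94 scaled FPKM in mutant females, 10.2 ± 1.35 in mutant males, 10.4 ± 1.53 in wild type females and 11.8 ± 0.773 in wild type males (SD, n = 3 each). Chgb averaged 7.45 ± 5.64, 11.1 ± 2.29, 11.6 ± 0.603 and 14.1 ± 1.91 in the same groups (SD, n = 3 each). Over both sexes they stood at -0.45 and -0.66 (limma adjusted p = 0.302 and 0.168).

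Among the synaptic vesicle genes, 3 of 6 fell over both sexes. Of all tested genes 21.6% were called lower, and of 18 further vesicle genes 3 were. Snap25, the membrane SNARE of vesicle fusion, had 9.75, 15.5 and 1.12 scaled FPKM in mutant females, against 15.7, 15.6 and 19.6 in wild type females. In males it had 14.8, 11.3 and 13.7 in mutants, against 33.6, 25.3 and 24.96 in wild types. Neither sex showed overlap, although mutant female 2 and wild type female 2 were close. Over both sexes Snap25 stood at -1.24 (SE 0.44, adjusted p = 0.0423), and the call was lost in 13 of 21 alternatives.

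Syt4, a synaptotagmin of peptide vesicles, had 5.03, 7.67 and 0.268 scaled FPKM in mutant females, against 9.78, 9.15 and 11.6 in wild type females. It had 7.01, 5.44 and 6.796 in mutant males, against 15.8, 12.9 and 15.6 in wild type males. The groups were separate in both sexes, and the log2 fold change over both was -1.42 (SE 0.45, adjusted p = 0.0276), with the call lost in 7 of 21 alternatives. Syt1, the calcium sensor of fast release, had 6.59, 5.47 and 6.08 in mutant males, against 10.6, 7.98 and 7.72 in wild type males, without overlap. It had 4.29, 7.202 and 2.48 in mutant females, against 6.78, 6.46 and 8.18 in wild type females, with mutant female 2 inside the wild type range. Over both sexes Syt1 stood at -0.58 (SE 0.19, adjusted p = 0.0305), lost in 8 of 21 alternatives.

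Syp, Syn1 and Rab3c, which encode the vesicle proteins synaptophysin, synapsin I and a Rab of the vesicle cycle, were not called. Syn1 had 1.13, 1.68 and 0.306 scaled FPKM in mutant females, against 0.852, 0.835 and 1.09 in wild type females, and 1.76, 1.28 and 1.83 in mutant males, against 1.42, 1.33 and 1.36 in wild type males. Mutant females 1 and 2 were above all wild type females and mutant female 3 below them. Its log2 fold change over both sexes was 0.09 (SE 0.20, adjusted p = 0.761). The span of Syn1 in the table overlaps Timp1, a metalloproteinase inhibitor with 5.29 to 9.32 scaled FPKM, and Araf, a kinase, and whether reads were shared was not tested. Syp and Rab3c stood at -0.43 and -0.56 (limma adjusted p = 0.287 and 0.0755).

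Of the 3 genes of autonomic identity and transmission, Chrna3 fell. Chrna3, the alpha subunit of the ganglionic nicotinic receptor, had 1.92, 4.25 and 0.243 scaled FPKM in mutant females, against 4.71, 4.45 and 5.003 in wild type females. In males it had 4.49, 3.54 and 4.56 in mutants, against 7.06, 5.89 and 7.05 in wild types. Mutants lay below wild types in both sexes without overlap, and the log2 fold change was -0.98 (SE 0.34, adjusted p = 0.0386), lost in 12 of 21 alternatives. Chrnb4, its partner subunit and neighbour on chromosome 9, averaged 0.958 ± 0.105 in mutant males and 1.11 ± 0.128 in wild type males (SD, n = 3 each) and stood at -0.20 (SE 0.21, adjusted p = 0.456) over both sexes.

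Phox2a, a homeobox gene of autonomic neurons that turns on noradrenaline synthesis, had 8.57, 6.83 and 7.17 scaled FPKM in mutant males, against 5.30, 5.96 and 5.85 in wild type males. In females it had 3.98, 7.41 and 1.18 in mutants, against 3.81, 3.89 and 6.22 in wild types. All 3 mutant males were above all 3 wild type males, while the female groups overlapped. The log2 fold change was 0.37 (SE 0.42, adjusted p = 0.577) in males and 0.00 (SE 0.30, adjusted p = 0.998) over both sexes. The span of Phox2a overlaps that of Inppl1, a lipid phosphatase gene whose log2 fold change over both sexes was 0.11 (limma adjusted p = 0.402).

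Of the remaining genes Nsg1 fell. Nsg1, a neuronal endosome protein, had 32.2, 43.4 and 25.01 scaled FPKM in mutant females, against 42.6, 44.6 and 47.0 in wild type females, and 51.5, 42.3 and 43.4 in mutant males, against 61.9, 54.4 and 62.5 in wild type males. The males did not overlap and mutant female 2 lay inside the wild type female range. Its log2 fold change over both sexes was -0.41 (SE 0.11, adjusted p = 0.0137), called in all 21 alternatives. Its span overlaps that of Stx18, a syntaxin of the endoplasmic reticulum that stood at -0.09 (limma adjusted p = 0.345).

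Uchl1, an abundant neuronal ubiquitin hydrolase, averaged 118 ± 15.1 scaled FPKM in mutant males and 146 ± 13.9 in wild type males (SD, n = 3 each). Nsg2, a relative of Nsg1, averaged 21.5 ± 3.14 and 30.1 ± 0.831, and Kif5a, a kinesin motor of neurons, 12.3 ± 2.07 and 13.3 ± 0.824 in the same groups (SD, n = 3 each). Over both sexes they stood at -0.38, -0.76 and -0.49, none of them called (limma adjusted p from 0.114 to 0.305). Snhg11, not tested, ranged from 0.0405 to 0.297 scaled FPKM in mutant females, 0.116 to 0.41 in mutant males, 0.0697 to 0.124 in wild type females and 0.148 to 0.228 in wild type males.

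The second comparison set males against females within each genotype, with the same 12 libraries, so it shares samples with the mutant comparisons. In wild types all 33 tested genes had higher values in males, with a median log2 fold change of 0.42 against 0.01 over all tested genes. None of the 33 was called by limma, 0 against 1.95% of all genes called higher, and 3 passed an unadjusted p under 0.05. The 3 male and 3 female libraries did not overlap for 24 of the 33 genes, higher in males, against 17.3% of all tested genes. With only these 6 libraries in the fit, 17 genes were called higher in males, against 5.4% of all genes, whereas it was 3 without mutant female 3, against 3.1%, and 1 without mutant female 2, against 2.16%. Elavl4, for example, averaged 7.26 ± 0.664 scaled FPKM in wild type males and 4.19 ± 0.517 in wild type females (SD, n = 3 each), a log2 fold change of 0.73. Tubb3 averaged 148 ± 11.6 in wild type males and 99.8 ± 14.5 in wild type females (SD, n = 3 each), at 0.57, whereas Scg5 stood at 0.06.

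In mutants all 33 genes were also higher in males, with a median of 1.05, and again 0 were called by limma, against 3.98% of all tested genes called higher, with 21 at an unadjusted p under 0.05. Libraries did not overlap for 9 genes, higher in males, against 13.1% of all tested genes. Leaving out mutant female 3 brought the median to 0.35, with 1 gene called, Scg2, against 3.74% of all genes called higher, and leaving out mutant female 2 gave 23 called, against 6.02%.

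Of the companion neural genes, Gata3, the noradrenaline transporter gene Slc6a2 and the peptide gene Penk were called higher in wild type males than in wild type females. They were 1 of 10 autonomic identity, 1 of 8 noradrenergic and 1 of 8 cholinergic and nitrergic genes, against 1.95% of all tested genes. In the nicotinic, vesicle, granule, cytoskeletal, RNA-binding, adhesion and kinesin lists 0 genes were called. In mutant female 3 Gata3, Slc6a2 and Penk stood at 112%, 29.3% and 144% of the mean of mutant females 1 and 2. Other tissue markers moved with the sexes as well. Between wild type males and females 4 of 12 skeletal muscle genes were called higher in males, and the median of 6 red cell genes was -2.23, with none called. The summed skeletal muscle markers ran from 976 to 1355 scaled FPKM in the males, against 610.2 to 817 in the females. Their part in the neural values was not tested.

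Within the neural genes, some were lower or higher in mutants than the middle of the group. For this description each gene's log2 shift from the wild type mean was set against the median shift of the 33 tested genes in the same library. A common loss or gain is removed only for genes well above the 0.5 added before the log. Low genes shift less, so a common loss leaves them above the median. Nefh, at 4.21% of the mean of mutant females 1 and 2 in mutant female 3, lay at 0.36 there. The highest value of Syn1 below, 1.53, is also from mutant female 3, where Syn1 had 0.306 scaled FPKM. Scg5 then lay at -1.72 to -0.71 in the 6 mutant libraries, against -0.68 to 0.44 in the 6 wild type libraries. Syt4 lay at -1.50 to -0.40 in mutants, against -0.11 to 0.13 in wild types, and Snap25 at -1.23 to -0.31, against -0.17 to 0.34. Scg3 was the last gene whose mutant libraries all lay lower, at -0.67 to -0.11, against -0.10 to 0.07. Those of Phox2a lay higher at 0.49 to 0.81 in mutants, against -0.23 to 0.32 in wild types, and those of Syn1 at 0.33 to 1.53, against -0.05 to 0.06. L1cam and Syp were also wholly higher, with mutant medians of 0.49 and 0.22. The share of all tested genes that separate in this way was not determined, here or after the correction below. The number of such genes is therefore no result about the group. Mutant female 3 is at the outer end of the mutant range for Syt4, Snap25, Scg3, Syn1, L1cam and Phox2a, and mutant female 2 for Scg5.

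**Figure D5:**
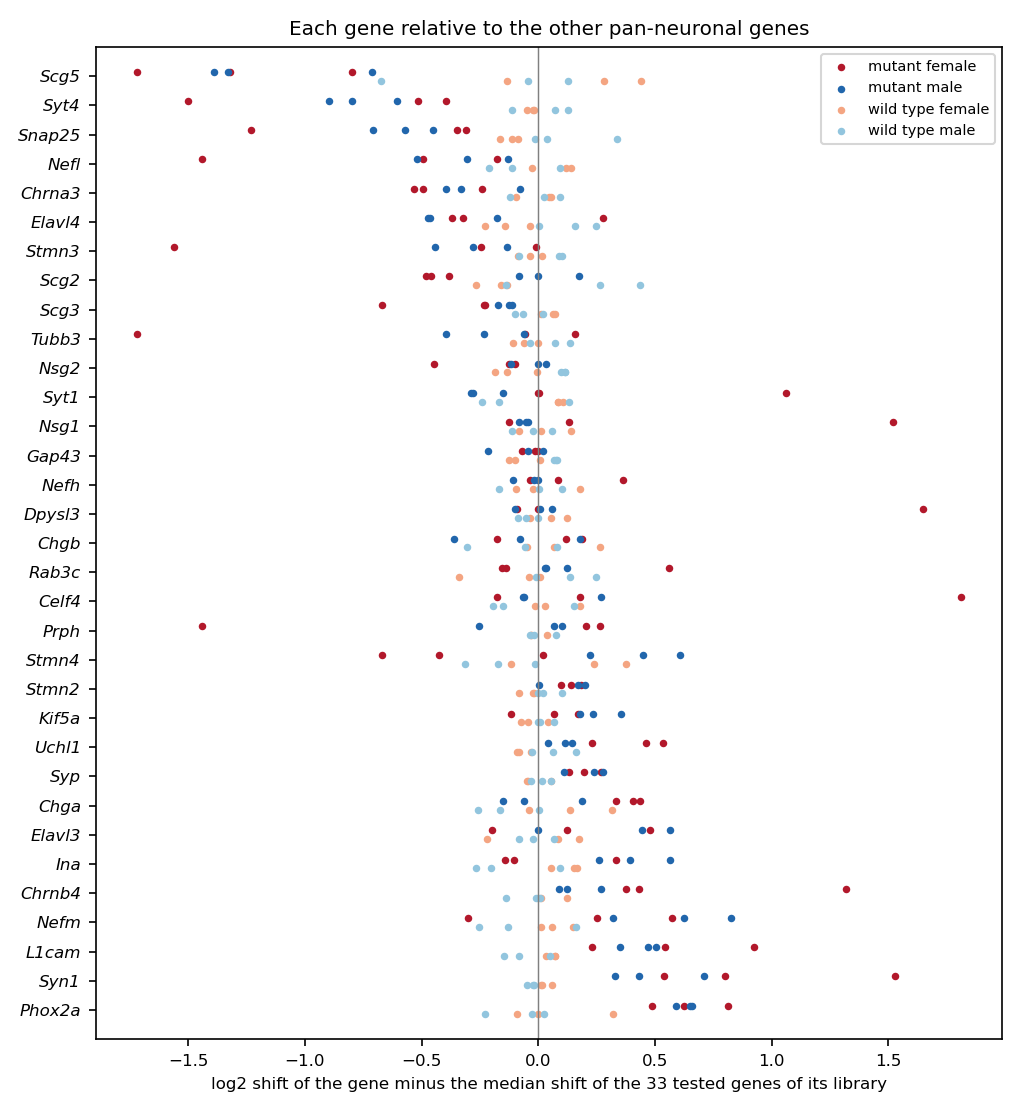
Log2 shift of each tested gene minus the median shift of the 33 genes in its library, one point for each of the 12 libraries, with genes ordered by their mutant values. Shifts were taken after 0.5 was added to scaled FPKM, which shrinks those of low genes. All 6 mutant points of Scg5, Syt4 and Snap25 lie left of the wild type points and all 6 of Phox2a, Syn1 and L1cam lie right of them.

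GC content moved with these differences. Across the 33 genes the log2 fold change had a Spearman correlation with transcript GC content of 0.23 in females, 0.52 in males and 0.41 over both sexes, as a description across genes that share the same libraries. Scg5 has a GC content of 48.1%, Syt4 40.7% and Snap25 38.7%, and Syn1 and Phox2a have 57.9% and 63.8%. After each library was corrected for GC content and transcript length, the mutant values of L1cam, Syp, Syn1 and Stmn2 lay wholly higher and those of Stmn3 wholly lower, while Syt4, Snap25, Scg3 and Phox2a overlapped, as did Scg5 through mutant male 1 and wild type male 1. Limma calls over both sexes were then 5 genes, Celf4, Dpysl3, Nefh, Nsg1 and Scg5.

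The companion lists give the rest of the neuronal programme over both sexes, where 18.9% of all tested genes were called higher and 21.6% lower. A count near these shares is no result about its list. Of 10 tested genes of autonomic identity 2 rose and 0 fell: Gata3 and Gata2, transcription factors of sympathetic neurons and their precursors, at 0.51 and 0.33 (limma adjusted p = 0.000531 and 0.0137). Gata2 and Gata3 are also made by urogenital epithelium and mesenchyme. Gata3 had 18.1, 17.4 and 15.8 scaled FPKM in mutant males, against 12.1, 11.5 and 12.6 in wild type males, and 8.15, 9.87 and 10.1 in mutant females, against 6.004, 5.57 and 7.37 in wild type females, without overlap in either sex. The list median was -0.13, against 0.00 over all tested genes.

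Transmitter genes were called lower at shares close to or below that of all genes. Of 8 noradrenergic genes 2 fell, the monoamine oxidase gene Maoa (-0.68) and the vesicular monoamine transporter gene Slc18a2 (-0.83), with a list median of -0.40. Of 8 cholinergic and nitrergic genes 1 fell, the choline transporter gene Slc5a7, at -1.44 (limma adjusted p = 0.00607), with a list median of -0.44. Slc5a7 had 2.05, 3.63 and 0.220 scaled FPKM in mutant females, against 4.94, 4.68 and 6.24 in wild type females, and 3.01, 2.67 and 4.53 in mutant males, against 10.3, 8.07 and 9.19 in wild type males. All mutants were below all wild types of their sex. Of 4 other nicotinic subunits Chrna5 fell, at -0.68.

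Among the structural lists, the share called lower was above the 21.6% of all tested genes only for axonal adhesion. Of 18 further synaptic vesicle genes 3 fell, among them Napb (-1.07) and Dnajc5 (-0.31), and 1 rose, the vesicle SNARE gene Vamp2 (0.47), with a median of -0.20. Of 9 granule genes 1 fell, the prohormone convertase gene Pcsk1 (-0.48), and of 16 cytoskeletal and growth cone genes 2 fell, Gdap1 (-0.96) and Dcx (-0.55). Of 7 RNA-binding genes Elavl2 fell (-0.83). Of 8 axonal adhesion genes 3 fell, Nrcam, Cntn1 and Chl1 (-0.69, -0.50 and -0.46), and of 5 kinesins 1 fell, the widely expressed Kif5b (-0.53). Medians were -0.37 for granule genes, -0.36 for cytoskeletal genes, -0.34 for RNA-binding genes, -0.38 for nicotinic subunits, -0.20 for adhesion genes and -0.08 for kinesins.

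Markers of other cells were counted in the same way. Of 12 Schwann cell and glial genes 2 fell, Cdh19 and Fabp7 (-0.84 and -1.02), with a median of -0.21. The glial list summed to 128 to 176 scaled FPKM in mutant females, 152 to 170.4 in mutant males, 177 to 185 in wild type females and 185 to 209 in wild type males. Of 12 skeletal muscle genes 7 fell (median -0.46), of 7 mesenchyme genes 3 fell (-0.18) and of 6 endothelial genes 1 fell (-0.16). Of 8 epithelial genes 3 rose (median 0.32), of 8 smooth muscle genes 1 rose (0.35) and of 6 red cell genes 1 rose (0.77). Their part in the neural values was not tested.

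Several markers of sensory and motor neurons were at or near 0, while other genes of these lists were not. The sensory genes Prdm12, Pou4f1 and Scn10a did not exceed 0.0218 scaled FPKM in any library. The sensory list summed to 0.859 to 3.99 scaled FPKM in mutant females, 6.07 to 6.82 in mutant males, 3.72 to 6.06 in wild type females and 7.75 to 9.55 in wild type males, most of it from the peptide genes Calca and Tac1, of which 0 of 2 were called. The motor neuron gene Lhx3 was listed at 0 in all 12 libraries and Mnx1 in 10. Isl2, which other neurons also express, had 0.913, 1.57 and 3.02 scaled FPKM in mutant females, 1.48, 2.10 and 1.43 in mutant males, 1.95, 1.92 and 2.09 in wild type females and 1.29, 1.21 and 1.43 in wild type males, and was not called. Pnmt, which marks adrenaline cells, did not exceed 0.158 scaled FPKM, and 0 of 1 tested adrenal gene was called. Of 4 tested neuroendocrine epithelial genes 1 rose (Foxa2 at 0.66) and 1 fell (Grp at -0.53), with a list median of -0.60. This list summed to 4.06 to 16.3 scaled FPKM in mutant females, 15.5 to 16.4 in mutant males, 14.9 to 15.3 in wild type females and 17.7 to 22.5 in wild type males, and its part in the values of Chga, Chgb and Syp was not tested.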

How the data were processed

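RNA of mouse urogenital sinus at E18.5 was sequenced in 12 libraries, and the table has 0 columns of other samples. Per the labels' protocols, ribosomal RNA was removed and strand-specific single-end libraries were made. The deposited table gives FPKM for 56495 genes, per the file headers, and the submitters' processing notes name cutadapt 4.1, STAR 2.7.10a, Cufflinks 2.2.1, bedtools 2.30.0 and the builds mm39 and mm10. The gene annotation and strand setting are not given in the sources used here. Of 51711 genes shared with GENCODE M21 on GRCm38, 2.84% have the same end, so positions are given as mm39, with starts counted from 1. All 36 mitochondrial genes were listed at 0.

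FPKM were divided by each library's median ratio over the 11897 genes that no library had under 1 FPKM. Relative depth was read from the steps among values under 0.05 FPKM. The 13904 genes reaching 1 FPKM in 3 or more libraries were taken as log2(scaled FPKM + 0.5), a scale that understates changes of low genes. They were fitted with limma 3.58.1 (R 4.3.3, trend, 4 group means, two-sided), adjusted by Benjamini-Hochberg over all genes tested, at a threshold of 0.05. The fit was tested on simulated data. The GC content and length correction used splines of 5 degrees of freedom each on the longest GENCODE M21 transcript, for which 34 of 34 members had values. Sequences are RefSeq promoter windows of GRCm38.p6.

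The members, their roles and the companion lists were chosen with earlier results of these data known. All 34 members are described, and some genes of the companion lists are not reported here. Of each companion list, the count called is given, and up to 3 tested genes with the smallest p over both sexes are named. Others were named after their values were seen. Alternatives were other pseudocounts, filters and scalings, no trend, only the compared groups, a replicate block, the GC content and length correction, and each library left out. The main fit did not pair libraries by replicate number, and whether same-numbered libraries were paired is not known.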

Additional observations from a re-analysis of the deposited data

How the results depend on the processing

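Of 3567 alternative values of 165 member results, 3304 kept direction and side of the threshold, 167 passed it newly, 55 lost it and 41 turned sign, none of the last with an adjusted p under 0.111. For each change below the cause was not tested. The correction combined with leaving out mutant female 3, and the replicate block of the sex comparisons, were chosen after seeing the data. Counts are of genes called, members first. In females 1 member and 3895 genes were called; with a pseudocount of 1 it was 2 members, with FPKM as deposited 3 and 1666, with FPKM-sum scaling 12, with GC content and length correction 2 and 1073, in a fit of these groups alone 2360 genes, and with that correction and without mutant female 3, 652 genes. In males 0 and 2820 were called; as deposited 1350 genes, in a fit of these groups alone 16 members, with the correction 517 genes, and with it and without mutant female 3, 4 members and 858 genes. Over both sexes 9 and 5639 were called; without a filter 3 members, as deposited 3424 genes, with the correction 5 and 2501, and with it and without mutant female 3, 2121 genes. For the sex difference of the mutant effect 0 genes were called; with a pseudocount of 0.1 it was 1, without a filter 8 and as deposited 1. Between mutant sexes 0 and 1042 were called; without a filter 661 genes, as deposited 401, with FPKM-sum scaling 22 and 6171, and in a fit of these groups alone 215 genes. Between wild type sexes 0 and 442 were called; with a filter at 5 FPKM 243 genes, as deposited 254, in a fit of these groups alone 17 and 1247, and with the correction and without mutant female 3, 5 and 774. With a replicate block 5 members were called over both sexes, 684 genes between mutant sexes and 257 between wild type sexes. No other count moved by over 1.5 times with the block. Correlations of deviations between same-numbered libraries ran from -0.226 to 0.317, which cannot show whether these libraries were paired.

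Leaving out each library in turn gave 1 to 28 members and 2436 to 4095 genes in females, 0 to 7 and 1242 to 3955 in males, 3 to 22 members over both sexes, 0 to 1 gene for the sex difference, 0 to 23 and 435 to 1375 between mutant sexes, and 0 to 3 and 160 to 988 between wild type sexes. The log2 fold changes that turned sign among these fits were, in females, Prph (-2.053 to 0.009), Nefm (-1.544 to 0.106), L1cam (-0.773 to 0.092), Chga (-1.217 to 0.047), Syn1 (-0.31 to 0.407), Phox2a (-0.873 to 0.244), Chrnb4 (-0.619 to 0.124) and Uchl1 (-0.88 to 0.18); in males Elavl3 (-0.13 to 0.211). Over both sexes they were Nefm (-0.612 to 0.213), L1cam (-0.309 to 0.124), Syn1 (-0.068 to 0.291), Phox2a (-0.253 to 0.305) and Isl2 (-0.145 to 0.184), between mutant sexes Chga (-0.083 to 1.181), and between wild type sexes Stmn4 (-0.075 to 0.249) and Scg5 (-0.079 to 0.274). Syn1 in females became 0.023 with a pseudocount of 1. Elavl3 in males became -0.001 with a pseudocount of 0.1, -0.134 as deposited, -0.010 with FPKM-sum scaling and -0.213 with the GC content and length correction. That correction gave 0.067 for Stmn2, -0.038 for L1cam, 0.024 for Syp and -0.055 for Syn1 in males, and 0.260 for Nova1 and 0.124 for Emcn over both sexes. Over both sexes Syn1 became -0.001 as deposited and -0.176 with the correction. Phox2a became -0.027 with a pseudocount of 0.1, -0.112 as deposited, -0.104 with FPKM-sum scaling and -0.337 with the correction, and Isl2 -0.063, -0.065 and -0.236 under the last 3 of these. As deposited, the median of all tested genes moved to -0.14 in males and -0.11 over both sexes; FPKM-sum scaling moved it to -0.21 in females, -0.11 over both sexes, 0.21 for the sex difference and 0.31 between mutant sexes.

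With 3 libraries a group, 1 library sets much of the female result, and the exact permutation test of a single gene between 3 and 3 libraries cannot fall below 0.1. FPKM do not carry total depth, so precision at low levels is unknown. Mutants were sequenced less deeply than wild types, without overlap, and GC content moved with the mutant differences. Ganglia were not dissected, so all values describe RNA of a mixed tissue. How much of each gene's RNA came from neurons was not tested.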
